A study of Mus musculus with 8 samples.

Results

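Wnt antagonists and feedback genes were followed in whole Lewis lung carcinoma (LLC) tumors of mice and in 3 cell populations sorted from them. The 10 genes were picked by name from the deposited table of 23952 gene symbols. They are Dkk2, Dkk3, Sfrp1, Sfrp2, Sfrp4, Wif1, Notum, Apcdd1, Nkd1 and Axin2, and all 10 were found. A symbol with several transcripts is represented by the transcript that averaged highest across the 8 libraries. The tumors had grown under the skin of transgenic Col1a1-GFP mice, in which green fluorescent protein (GFP) marks cells that express the collagen gene Col1a1, after injection of LLC cells, a mouse lung carcinoma line. All 4 groups share these hosts, the injected cells, which carried a dTomato expression vector and had been selected by sorting for dTomato and kept in G418, and an injection of Alexa 647-collagen into the tumor 24 h before the cells were prepared. TAM are tumor-associated macrophages, which stained for F4/80, had taken up the labelled collagen, and carried neither dTomato nor GFP. Fibroblast stands for GFP-positive cells, LLC for dTomato-positive cells and Total tumor for the whole tumor. Each group had 2 libraries, and the labels give neither the age of the mice nor whether the libraries came from separate animals, so a p-value reflects only how far these libraries differ among themselves, which may be technical.

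Wnt proteins are secreted, lipid-modified ligands that bind Frizzled receptors and the co-receptors LRP5 and LRP6. In the canonical branch this stops the destruction of beta-catenin, which then acts with TCF/LEF factors on target genes. Antagonists act at each step: secreted Frizzled-related proteins (Sfrp) and Wif1 bind the ligand, Notum removes its lipid, Dickkopf proteins (Dkk) act on the co-receptors, Apcdd1 binds ligand and co-receptor at the membrane, and Nkd1 and Axin2 restrain the signal inside the cell. Several of these genes are themselves induced by the signal, Axin2 being the most widely used readout, and stromal fibroblasts are a well-known source of Sfrp proteins.

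Values are RPKM, reads per kilobase of transcript, scaled to the library's total, as the authors computed them. Depth was estimated from steps among the low values, 57.73 to 62.3% of which came to whole reads (to within 0.05), so it is approximate. It lay between 8.54 and 10.37 M reads in the replicate 1 libraries and between 4.28 and 4.72 M reads in the replicate 2 libraries of every group. TAM and Fibroblast carried the markers of their names, and LLC did so less clearly. The summed level of 10 macrophage markers was 13866 and 10148 RPKM in TAM and between 72.3 and 2825 RPKM in all other libraries, and that of 10 fibroblast markers was 18169 and 16620 RPKM in Fibroblast and between 84.6 and 2380 RPKM elsewhere. The 8 epithelial markers summed to 11.4 and 14.1 RPKM in TAM, 26.5 and 203.6 RPKM in Fibroblast, 179 and 129 RPKM in LLC and 129 and 303 RPKM in Total tumor, so both LLC libraries lay below Fibroblast 2 and Total tumor 2. Of these markers, only Krt8 and Krt18 exceeded 5 RPKM in LLC, while Krt7 and Cldn4 were listed at 0 in both LLC libraries, so the LLC label rests on the dTomato gate. In Fibroblast 2 the sum was led by Krt19. Markers of further cell types were present too. The 6 pericyte markers summed to 197 and 150 RPKM in Fibroblast and to between 1.62 and 19.8 RPKM elsewhere. The 6 endothelial markers summed to 53.7 and 51.8 RPKM in Fibroblast and to between 1.455 and 35.0 RPKM elsewhere. In TAM, 4 B cell markers summed to 54.9 and 16.5 RPKM and 5 neutrophil markers to 69.2 and 60.4 RPKM. Which cells gave these values was not tested.

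Upstream sequences were at hand for 5 of the 10 genes in the RefSeq promoter table (build GRCm38.p6, a later build than the mm9 used for the deposited values). The 250 bases before the annotated start are given for 4 of them, each 5′ to 3′ on the plus strand. Axin2 and Nkd1, the intracellular feedback genes, and Sfrp2 were highest in Fibroblast, and Dkk2 was highest in LLC. Capitals mark CTTTG, the core of the TCF/LEF motif, and TATAAA, the TATA box, each searched on both strands. The windows are chr11:108920099-108920348 for Axin2, chr8:88527383-88527632 for Nkd1, chr3:83766071-83766320 for Sfrp2 and chr3:132085042-132085291 for Dkk2.
Axin2: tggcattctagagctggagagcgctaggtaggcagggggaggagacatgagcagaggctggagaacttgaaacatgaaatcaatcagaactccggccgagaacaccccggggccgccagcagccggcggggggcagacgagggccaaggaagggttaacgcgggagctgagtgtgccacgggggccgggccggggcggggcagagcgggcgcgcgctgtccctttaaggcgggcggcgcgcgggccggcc
Nkd1: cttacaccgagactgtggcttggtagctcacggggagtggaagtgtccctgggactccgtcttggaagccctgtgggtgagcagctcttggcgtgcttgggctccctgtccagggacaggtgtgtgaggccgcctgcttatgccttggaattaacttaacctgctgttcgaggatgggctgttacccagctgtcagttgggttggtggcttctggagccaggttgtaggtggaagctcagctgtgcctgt
Sfrp2: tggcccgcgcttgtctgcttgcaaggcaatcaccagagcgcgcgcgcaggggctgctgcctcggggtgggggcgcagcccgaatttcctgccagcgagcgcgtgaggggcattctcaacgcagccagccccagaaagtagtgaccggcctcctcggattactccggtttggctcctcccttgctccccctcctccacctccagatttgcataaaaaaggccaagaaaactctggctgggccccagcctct
Dkk2: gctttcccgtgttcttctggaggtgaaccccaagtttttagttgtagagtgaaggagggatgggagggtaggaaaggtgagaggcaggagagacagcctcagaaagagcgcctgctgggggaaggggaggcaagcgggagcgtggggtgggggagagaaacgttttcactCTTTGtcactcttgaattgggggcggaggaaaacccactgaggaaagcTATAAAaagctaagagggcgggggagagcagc
The Dkk2 window held 1 match to the TCF/LEF core and a TATAAA, which began 32 bases before the start. The fifth window, that of Wif1, also held 1 match to each, and the other 3 held none. The core occurred in 48.6% and TATAAA in 12.4% of all 32851 windows of this length. The extended motif, which is the core followed by AA, AT, TA or TT, occurred in 14.8% of all windows and in 0 of the 5 members' windows. The Axin2 window held 24 CG dinucleotides, the Sfrp2 window 16, the Dkk2 window 7 and the Nkd1 window 6, against a median of 6 over all windows.

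The 10 genes fell into separate groups by where their RNA was found. Dkk3, Sfrp1, Sfrp2, Sfrp4, Nkd1 and Axin2 had their highest level in Fibroblast. Dkk2 and Apcdd1 had theirs in LLC. Notum reached about 1 RPKM in LLC, and Wif1 stayed under 0.2 RPKM in every library. None of the 10 was highest in TAM.

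**Figure D1:**
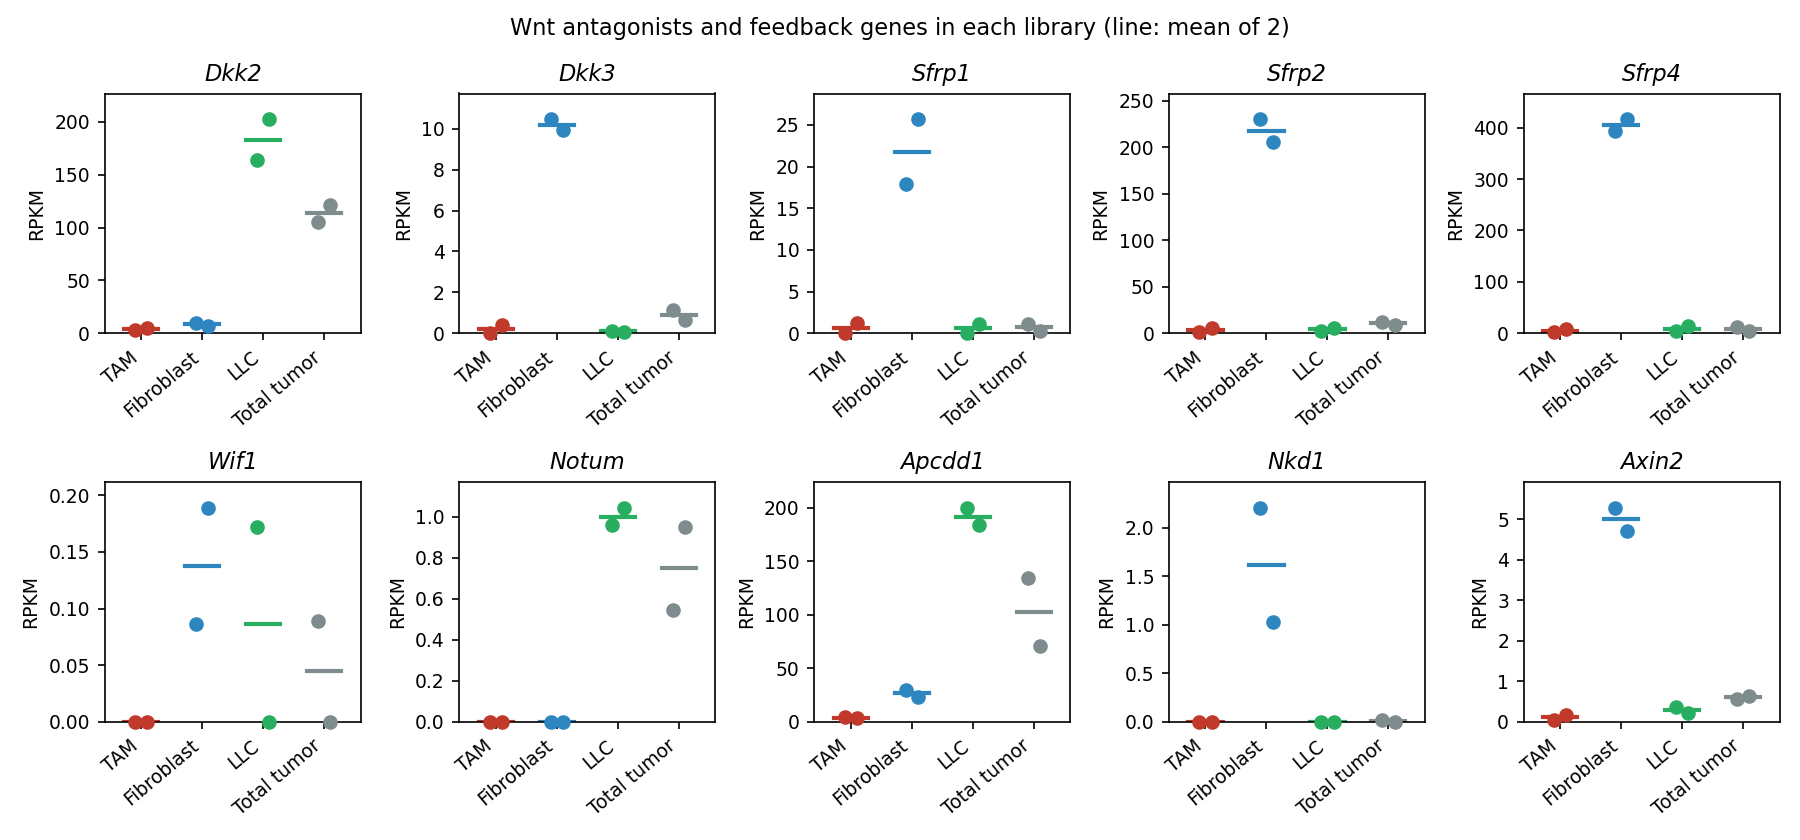
RPKM (vertical axis, from 0, with a scale of its own per panel) of each of the 10 genes in the 2 libraries of TAM, Fibroblast, LLC and Total tumor; points are libraries and lines are means of 2. Sfrp2 and Sfrp4 exceed 200 RPKM in both Fibroblast libraries and stay under 14 RPKM in all others, while Dkk2 and Apcdd1 reach 164 RPKM or more in both LLC libraries.

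Genes with at least 1 RPKM in at least 2 libraries were tested with limma on log2(RPKM + 1), and differences below are on that scale, which understates the change of low genes. A gene was called at an adjusted p under 0.05 over the 13311 genes tested. Of the 10 genes 8 were tested, and Wif1 and Notum were not. Dkk3, Nkd1 and Axin2 reached the minimum only through the Fibroblast libraries, so a difference in those 3 was built into the filter, and the counts that follow describe the genes without supporting a common direction. Between TAM and LLC, where 42.9% of all genes tested were called, 2 of the 8 were lower in TAM (27.5% of all genes were called lower), and 0 were higher, at an unadjusted p under 0.05 as well (15.4% of all genes were called higher). All 8 were lower in TAM than in Fibroblast (17.3% of all genes were lower and 34.7% were called either way). Against LLC, 6 were higher in Fibroblast (13% of all genes) and 2 lower (25.7%, with 38.6% called either way). The comparisons share libraries, so they are not independent of one another. Statements that groups did or did not overlap describe 2 libraries against 2. The share of all genes without overlap is not given, so they are no test. The median gene differed by -0.38 between TAM and LLC, by 0.13 between TAM and Fibroblast and by -0.46 between Fibroblast and LLC, and after upper-quartile rescaling by -0.21, -0.10 and -0.05.

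**Figure D2:**
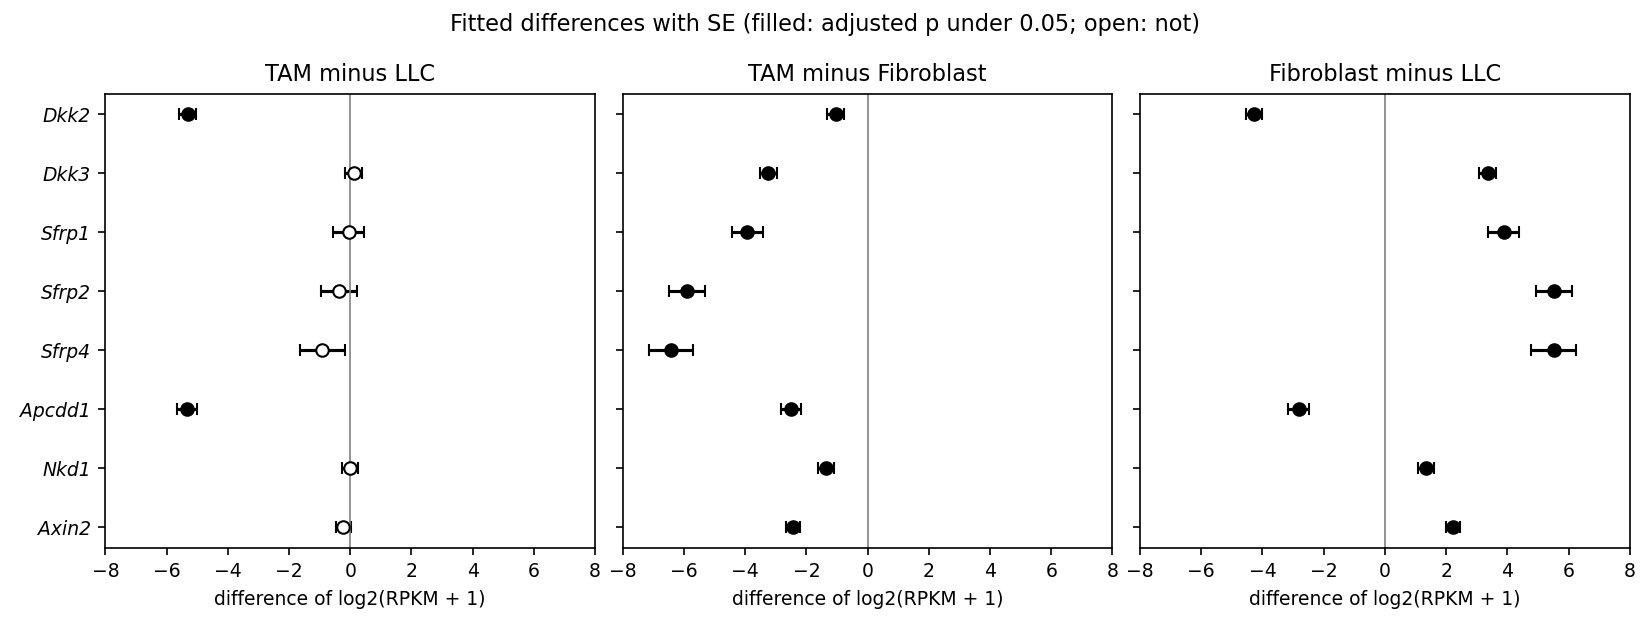
Fitted differences of log2(RPKM + 1) (horizontal axis) with their standard errors for the 8 tested genes in the 3 comparisons of sorted populations; filled points passed an adjusted p under 0.05 and open points did not. Dkk2 and Apcdd1 lie far below 0 in both comparisons with LLC, while the other 6 lie near 0 between TAM and LLC and above 0 between Fibroblast and LLC.

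The Sfrp genes, which encode soluble decoys with a Frizzled-like ligand-binding domain, were all highest in Fibroblast. Sfrp4 (NM_016687) had 1.53 and 7.90 RPKM in TAM, 394 and 416 RPKM in Fibroblast, 4.33 and 13.8 RPKM in LLC and 11.9 and 3.87 RPKM in Total tumor. The Fibroblast libraries stood far above all others, and the other 3 groups overlapped. Its difference was -6.42 (SE 0.73, adjusted p = 0.000346) for TAM minus Fibroblast and 5.51 (SE 0.73, adjusted p = 0.00126) for Fibroblast minus LLC. Sfrp2 (NM_009144) had 0.934 and 6.03 RPKM in TAM, 230 and 206 RPKM in Fibroblast, 2.31 and 5.83 RPKM in LLC and 11.7 and 9.42 RPKM in Total tumor. Its TAM and LLC libraries overlapped, and both Total tumor libraries lay above them and far below Fibroblast. The Sfrp2 difference was -5.89 (SE 0.59, adjusted p = 0.000216) for TAM minus Fibroblast and 5.52 (SE 0.59, adjusted p = 0.000596) for Fibroblast minus LLC. Sfrp1 (NM_013834) was the lowest of the 3, listed at 0 in TAM 1, with 1.17 RPKM in TAM 2, 17.9 and 25.7 RPKM in Fibroblast, 0.066 and 1.17 RPKM in LLC and 1.10 and 0.290 RPKM in Total tumor. Outside Fibroblast its libraries overlapped across groups. The Sfrp1 difference was -3.93 (SE 0.51, adjusted p = 0.000646) for TAM minus Fibroblast and 3.88 (SE 0.51, adjusted p = 0.00122) for Fibroblast minus LLC. None of the 3 passed between TAM and LLC (adjusted p = 0.956 for Sfrp1, 0.653 for Sfrp2 and 0.352 for Sfrp4).

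In sum, the 3 Sfrp genes held 8.78 ± 8.93 RPKM in TAM, 645 ± 4.02 RPKM in Fibroblast, 13.8 ± 9.97 RPKM in LLC and 19.1 ± 7.86 RPKM in Total tumor (SD, n = 2 each). Sfrp4 exceeded Sfrp2 and Sfrp2 exceeded Sfrp1 per length in both Fibroblast libraries. The sizes of the TAM and LLC values depended on the library. Without TAM replicate 1 the TAM minus Fibroblast difference was -4.96 for Sfrp2 and -5.51 for Sfrp4, and without TAM replicate 2 it was -6.82 and -7.33. The Sfrp4 difference for Fibroblast minus LLC was 4.78 without LLC replicate 1 and 6.25 without LLC replicate 2. All of these kept their calls.

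The Dickkopf genes lay in opposite directions between Fibroblast and LLC. Dkk2 (NM_020265), a co-receptor antagonist that can also activate the pathway in some settings, had 2.87 and 4.52 RPKM in TAM, 9.86 and 7.28 RPKM in Fibroblast, 164 and 202 RPKM in LLC and 105 and 121 RPKM in Total tumor. No groups overlapped, and the order was LLC, Total tumor, Fibroblast and TAM. Its difference was -5.31 (SE 0.27, adjusted p = 9.87e-05) for TAM minus LLC and -4.27 (SE 0.27, adjusted p = 0.000272) for Fibroblast minus LLC. The smaller difference for TAM minus Fibroblast (-1.04, SE 0.27, adjusted p = 0.0199) did not hold without TAM replicate 1 (adjusted p = 0.145), Fibroblast replicate 1 (0.17) or Fibroblast replicate 2 (0.0581), nor with a pseudocount of 5 (0.0597). Over all its alternatives the adjusted p lay between 0.00643 and 0.17. Dkk3 (NM_015814), a divergent Dickkopf whose effect on Wnt signalling varies with context, was listed at 0 in TAM 1, with 0.4 RPKM in TAM 2, 10.5 and 9.93 RPKM in Fibroblast, 0.115 and 0.069 RPKM in LLC and 1.13 and 0.631 RPKM in Total tumor. The LLC values amount to about 4 and 1 reads at the estimated depth, and TAM 2 to about 6 reads. The Dkk3 difference was -3.24 (SE 0.28, adjusted p = 0.000151) for TAM minus Fibroblast and 3.36 (SE 0.28, adjusted p = 0.000346) for Fibroblast minus LLC. Between TAM and LLC it did not pass (0.12, adjusted p = 0.772), and the libraries overlapped.

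Both remaining secreted antagonists were low, and Wif1 was near the limit of detection. Notum (NM_175263), the enzyme that removes the lipid from Wnt proteins, was listed at 0 in both TAM and both Fibroblast libraries, with 0.958 and 1.04 RPKM in LLC and 0.547 and 0.949 RPKM in Total tumor. These values amount to about 20 and 9 reads in LLC and 11 and 9 reads in Total tumor. Both LLC libraries lay above both Total tumor libraries, with Total tumor 2 close to LLC 1. Wif1 (NM_011915), which binds Wnt ligands, was listed at 0 in both TAM libraries, with 0.086 and 0.189 RPKM in Fibroblast, 0.172 and 0 RPKM in LLC and 0.089 and 0 RPKM in Total tumor. No library held more than about 4 reads of it, and the groups overlapped.

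Apcdd1 (NM_133237), the membrane-bound inhibitor, stood beside Dkk2 as an LLC gene. It had 4.22 and 3.43 RPKM in TAM, 30.1 and 22.9 RPKM in Fibroblast, 200 and 183 RPKM in LLC and 135 and 70.6 RPKM in Total tumor. No groups overlapped, in the same order as for Dkk2. Its difference was -5.32 (SE 0.33, adjusted p = 0.000114) for TAM minus LLC, -2.82 (SE 0.33, adjusted p = 0.000794) for Fibroblast minus LLC and -2.50 (SE 0.33, adjusted p = 0.000693) for TAM minus Fibroblast. In Fibroblast Apcdd1 stood at 15.7 and 12% of its LLC mean and Dkk2 at 5.38 and 3.97%. In TAM the shares were 2.20 and 1.79% for Apcdd1 and 1.57 and 2.47% for Dkk2. Krt8 and Krt18 were the only 2 of the 8 epithelial markers above 5 RPKM in LLC. These keratins stood at a median of 6.62 and 4.50% of their LLC mean in TAM, 4.85% in Fibroblast 1 and 43.0% in Fibroblast 2. All other listed epithelial markers were higher in Fibroblast 2 than in both LLC libraries. Among these, Krt19 had 99.6 RPKM in Fibroblast 2 and 0.07 and 1.53 RPKM in LLC. The source of the keratin RNA in Fibroblast 2 was not tested. Apcdd1 and Dkk2 were lower in Fibroblast 2 than in Fibroblast 1.

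The intracellular feedback genes were low everywhere and highest in Fibroblast. Axin2 (NM_015732), a scaffold of the beta-catenin destruction complex and a direct target of the pathway, had 0.055 and 0.158 RPKM in TAM, 5.29 and 4.71 RPKM in Fibroblast, 0.362 and 0.219 RPKM in LLC and 0.564 and 0.647 RPKM in Total tumor. The groups did not overlap. In reads this was about 2 and 3 in TAM, 234 and 95 in Fibroblast, 16 and 4 in LLC and 24 and 13 in Total tumor. The Axin2 difference was -2.44 (SE 0.23, adjusted p = 0.000189) for TAM minus Fibroblast and 2.22 (SE 0.23, adjusted p = 0.000558) for Fibroblast minus LLC, and between TAM and LLC it did not pass (-0.22, adjusted p = 0.482). Nkd1 (NM_027280), which binds Dishevelled, was listed at 0 in both TAM and both LLC libraries, with 2.21 and 1.03 RPKM in Fibroblast and 0.023 and 0 RPKM in Total tumor. Its call against TAM (adjusted p = 0.00541) and LLC (adjusted p = 0.00669) rests on a difference of 1.62 RPKM between the group means, and no fold is given against groups listed at 0. The second Nkd1 transcript, NM_001163660, had 2.06 and 1.03 RPKM in Fibroblast and was listed at 0 in the other 6 libraries.

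The low values of the Fibroblast genes in other populations were set beside fibroblast markers. The 10 markers had a median of 0.494% of their Fibroblast mean in TAM 1 (range 0.171 to 1.32%) and 2.57% in TAM 2 (range 1.52 to 3.46%). Sfrp2 stood at 0.428 and 2.76%, Sfrp4 at 0.378 and 1.95% and Axin2 at 1.10 and 3.16% in the same libraries. Sfrp1 and Dkk3 were listed at 0 in TAM 1 and stood at 5.39 and 3.92% in TAM 2. In LLC the marker median was 2.51% in replicate 1 and 4.79% in replicate 2, with a range up to 67.6%. Lum, Dcn, Dpt and Pdgfra were the highest there, and Col1a1 stood at 1.6 and 4.03%. Sfrp2 reached 1.06 and 2.67%, Sfrp4 1.07 and 3.41%, Sfrp1 0.303 and 5.38%, Dkk3 1.13 and 0.676% and Axin2 7.24 and 4.38% in these LLC libraries. Sfrp1, Sfrp2, Sfrp4 and the marker median had higher shares in replicate 2 than in replicate 1 of both TAM and LLC, while Dkk3 and Axin2 had lower shares in LLC 2 than in LLC 1. The part of fibroblast RNA in these values was not tested.

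**Figure D3:**
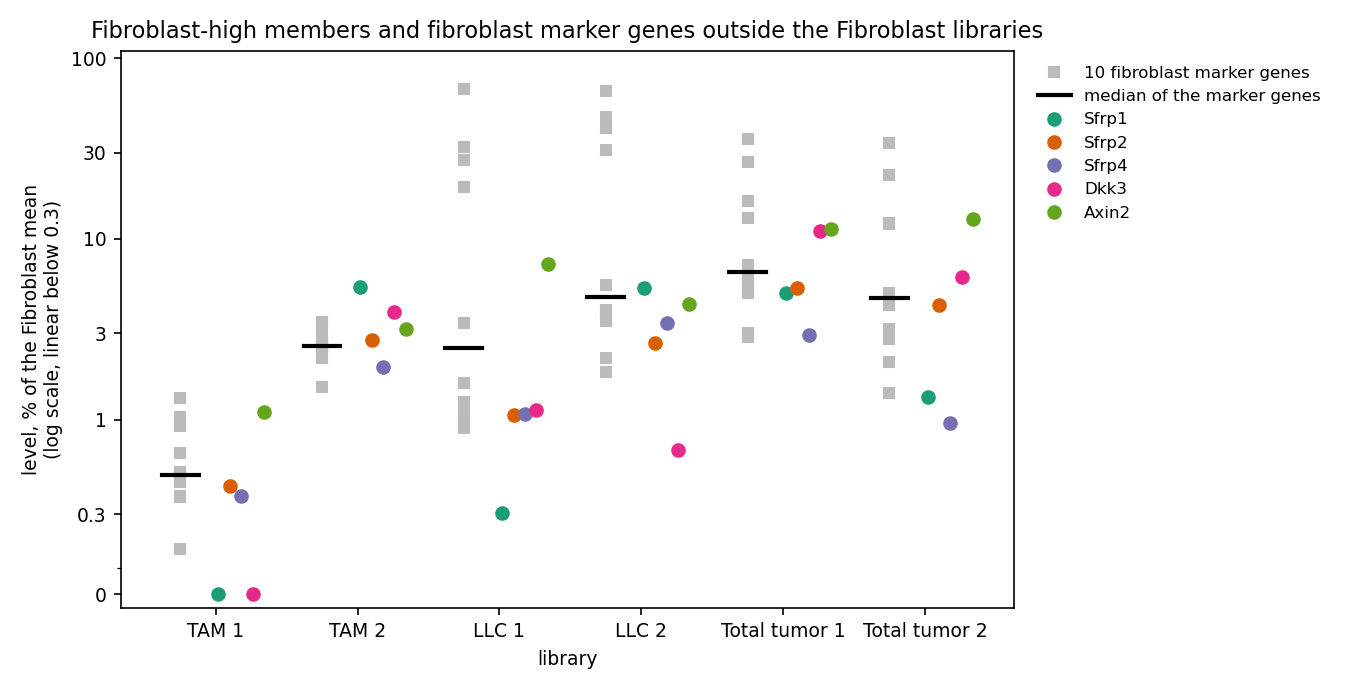
Level of 5 Fibroblast-high genes (coloured circles) and of 10 fibroblast marker genes (grey squares, with their median as a line) in the 6 libraries of TAM, LLC and Total tumor, as a percent of the gene's Fibroblast mean (log axis, linear below 0.3). The marker median is 0.494% in TAM 1 and 2.57% in TAM 2, and Sfrp2 lies at 0.428 and 2.76%.

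In the sorted populations set against Total tumor, the question was which of them differed from the whole tumor in these genes. In bulk samples fewer cells of a type and less RNA per cell cannot be told apart. Fibroblast was higher than Total tumor in 6 genes (12.1% of all genes tested) and lower in Dkk2 and Apcdd1 (30% of all genes, with 42.1% called either way). The differences for Fibroblast minus Total tumor were 5.68 for Sfrp4, 4.25 for Sfrp2, 3.77 for Sfrp1, 2.59 for Dkk3 and 1.90 for Axin2 (adjusted p = 0.00127, 0.00174, 0.00154, 0.000789 and 0.00113), and Nkd1 was called as well (adjusted p = 0.00689). The Sfrp4 value was 6.38 without Total tumor replicate 1 and 4.98 without Total tumor replicate 2. Dkk2 differed by -3.59 (adjusted p = 0.000516) and Apcdd1 by -1.85 (adjusted p = 0.0043), and the Apcdd1 call ended with quantile normalization (adjusted p = 0.0505, between 0.0018 and 0.0505 in all alternatives).

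TAM were lower than Total tumor in 2 genes (23.9% of all genes tested, with 35.2% called either way), Dkk2 (-4.63, adjusted p = 0.000354) and Apcdd1 (-4.36, adjusted p = 0.000375), and higher in 0, also at an unadjusted p under 0.05 (11.3% of all genes were called higher). Sfrp2 was at 0.934 and 6.03 RPKM in TAM and at 11.7 and 9.42 RPKM in Total tumor, with no overlap, and did not pass (-1.64, adjusted p = 0.0647). Leaving out TAM replicate 2 made it pass (-2.58, adjusted p = 0.0167, between 0.0167 and 0.32 in all alternatives). Axin2, with a difference of -0.54 (adjusted p = 0.112), passed at a pseudocount of 0.1 (adjusted p = 0.0478, between 0.0478 and 0.785 in all alternatives).

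Between LLC and Total tumor limma called 0 of the 8 genes (2.35% of all genes tested were called, 0.0526% higher and 2.3% lower), and 3 had an unadjusted p under 0.05. These were Dkk2 (183 ± 27.2 RPKM in LLC and 113 ± 11.3 RPKM in Total tumor, difference 0.68, adjusted p = 0.402), Apcdd1 (192 ± 11.7 RPKM in LLC and 103 ± 45.2 RPKM in Total tumor, 0.97, adjusted p = 0.275) and Dkk3 (-0.77, adjusted p = 0.327), with SD and n = 2 each. Both LLC libraries exceeded both Total tumor libraries for Dkk2 and Apcdd1. Apcdd1 passed without Total tumor replicate 1 (1.43, adjusted p = 0.0201, between 0.0201 and 0.767 in all alternatives), a fit in which 19% of all genes were called. In Total tumor, Dkk2 stood at 57.5 and 66.2% and Apcdd1 at 70.2 and 36.9% of the LLC mean, while Sfrp2 stood at 5.38 and 4.32% and Sfrp4 at 2.93 and 0.954% of the Fibroblast mean. The 10 fibroblast markers had a median of 6.56 and 4.69% of their Fibroblast mean there. Axin2 stood at 11.3 and 12.9% and Dkk3 at 11.1 and 6.19% of their own Fibroblast means.

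The genes most like each member were found by Pearson's correlation of log2(RPKM + 1) over the 8 libraries, among genes with a group mean of at least 10 RPKM. These r values are descriptions, since the libraries of a group lie together and any gene high in a single group scores well. Sfrp2 was closest to Wisp2, Thy1 and Mfap5 (r = 0.999, 0.999 and 0.996), Sfrp4 to Cygb, Col14a1 and Ecm2 (r = 0.999, 0.998 and 0.998) and Sfrp1 to Cyp1b1, Gabra3 and Clip4 (r = 0.999, 0.996 and 0.995). Dkk3 was closest to Olfml1, Tgfb1i1 and Dpp4 (r = 0.994, 0.993 and 0.992), Axin2 to Tgfb1i1, Ngfr and Rtn4rl2 (r = 0.998, 0.995 and 0.993) and Nkd1 to Chrd, AF357359 and Krtdap (r = 0.984, 0.983 and 0.982). On the LLC side Dkk2 was closest to Nap1l1, Bag2 and Sertad4 (r = 0.996, 0.996 and 0.994), and Apcdd1 to Tle1, Klhdc2 and Lrig1 (r = 0.997, 0.994 and 0.993). Tle1 encodes a Groucho co-repressor that binds TCF/LEF factors. Dkk2 and Apcdd1 had r = 0.942 with each other, and the 6 Fibroblast genes had r between 0.912 and 0.991 among themselves.

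Other genes of the pathway were divided between the same populations. Some genes stand in several of the lists, so the counts of the lists are not independent. Lef1 and Tcf7 are among TCF/LEF factors and targets, Znrf3 and Rnf43 among antagonists and targets, and Lgr5 among R-spondin receptors and targets. The counts below are read against the share of all genes called in the same direction, which was 13% higher and 25.7% lower for Fibroblast minus LLC, 17.3% lower for TAM minus Fibroblast, and 15.4% higher and 27.5% lower for TAM minus LLC. As with Dkk3, Nkd1 and Axin2, some of these genes reached the filter only through the Fibroblast libraries, so that their differences from Fibroblast, and part of each count, were built into the filter. They were 4 ligands (Wnt2, Wnt2b, Wnt5b and Wnt16), 3 receptors (Fzd8, Fzd10 and Ror1), Rspo3, 3 antagonists (Nkd2, Draxin and Trabd2b) and Pygo1. The targets Ascl2 and Bambi did so only through TAM, and Lef1 only through Total tumor. Of 19 Wnt ligands 9 were tested, since the rest were low. In Fibroblast 6 were higher and 1 lower than in LLC (range over alternatives 3 to 7 higher, median difference 1.33, against -0.46 for all genes). Among those tested only through Fibroblast, Wnt2 had 32.4 ± 9.36 RPKM in Fibroblast and 0.806 ± 0.109 RPKM in LLC (4.18, adjusted p = 0.000809), and Wnt16 had 7.71 ± 0.926 RPKM in Fibroblast and 0.140 ± 0.198 RPKM in LLC (2.94, adjusted p = 0.00037). Wnt7b lay the other way, at 0.689 ± 0.0870 RPKM in Fibroblast and 19.1 ± 6.17 RPKM in LLC (-3.54, adjusted p = 0.00044). In TAM 8 ligands were lower than in Fibroblast (range 4 to 9, median -2.21, against 0.13 for all genes), with Wnt2 (-4.68, adjusted p = 0.000252) and Wnt16 (-3.12, adjusted p = 0.000143) in the lead. Compared with LLC, 4 were lower in TAM (range 1 to 5, median -0.70, against -0.38 for all genes), led by Wnt7b (-3.41, adjusted p = 0.000268) and Wnt9a (-2.27, adjusted p = 0.000603). Wls, which carries Wnt proteins to the cell surface, had 28.3 ± 6.36 RPKM in TAM, 57.4 ± 0.426 RPKM in Fibroblast and 187 ± 28.4 RPKM in LLC. It was lower in TAM than in LLC (-2.69, adjusted p = 0.000226) and lower in Fibroblast than in LLC (-1.68, adjusted p = 0.00223). Its difference for TAM minus Fibroblast (-1.01, adjusted p = 0.0167) did not hold without TAM replicate 1, Fibroblast replicate 1 or Fibroblast replicate 2 (adjusted p up to 0.133). Porcn, which adds the lipid, was called higher in TAM (1.24, adjusted p = 0.0198) and in Fibroblast (1.23, adjusted p = 0.0232) than in LLC, and neither call was stable. The first ended without TAM replicate 1, LLC replicate 1 or LLC replicate 2 (adjusted p up to 0.13), and the second without any 1 of the 4 libraries compared and with quantile normalization (adjusted p up to 0.179).

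**Figure D4:**
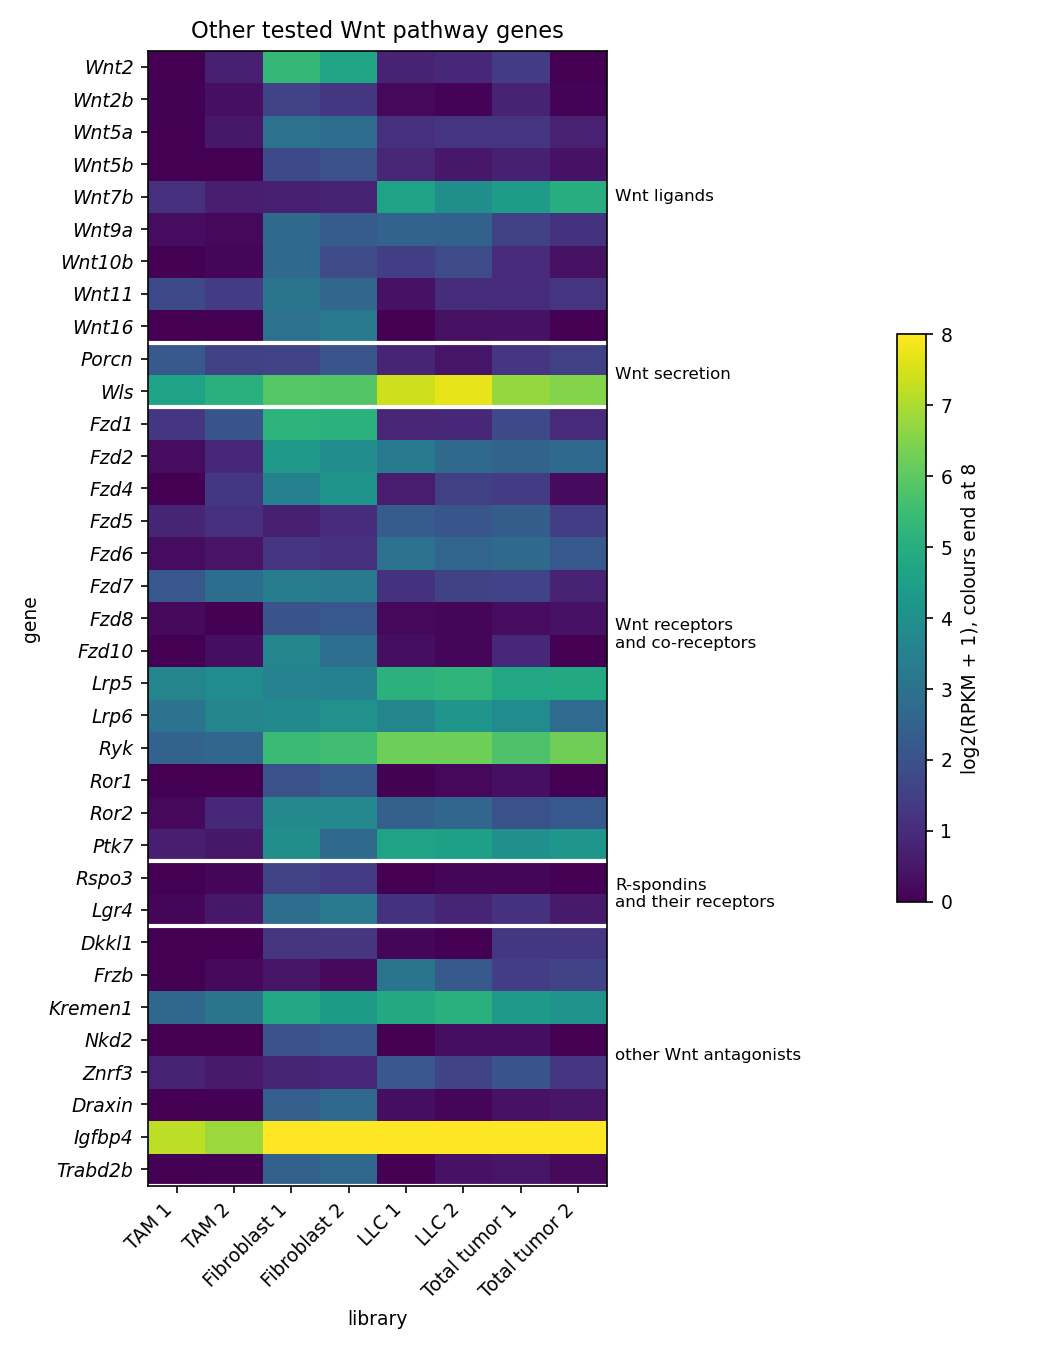
Level as log2(RPKM + 1) (colour, ending at 8) of the tested Wnt ligands, secretion genes, receptors, R-spondin genes and other antagonists (rows) in the 8 libraries (columns). Wnt2, Fzd1, Draxin and Trabd2b are brightest in the Fibroblast columns and Wnt7b and Frzb in the LLC and Total tumor columns.

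Of 16 receptors and co-receptors 14 were tested. In Fibroblast 8 were higher than in LLC and 5 lower (ranges 2 to 8 and 1 to 5 over alternatives, median 1.15, against -0.46 for all genes). Fzd1 had 34.3 ± 1.13 RPKM in Fibroblast and 0.869 ± 0.0495 RPKM in LLC (4.24, adjusted p = 0.00037), Fzd10, tested only through Fibroblast, differed by 3.08 (adjusted p = 0.000985), and the co-receptor Lrp5 was lower, at 10.5 ± 0.107 RPKM in Fibroblast and 35.9 ± 1.69 RPKM in LLC (-1.68, adjusted p = 0.00104). Fzd6 was lower too (-1.64, adjusted p = 0.00464), but not without Fibroblast replicate 2 (adjusted p = 0.0538). In TAM 9 were lower than in Fibroblast (range 6 to 10, median -2.46, against 0.13 for all genes), with Fzd2 (-3.54, adjusted p = 0.00019) and Fzd1 (-3.47, adjusted p = 0.000326) in the lead. Compared with LLC, 7 were lower in TAM (range 6 to 7, median -0.90, against -0.38 for all genes), led by Ptk7 (-4.00, adjusted p = 0.000234) and Ryk (-3.64, adjusted p = 0.000119). The single higher receptor, Fzd7 (1.17, adjusted p = 0.0403), lost its call under 9 alternatives, among them without TAM replicate 2 or any 1 of the Fibroblast and LLC libraries (adjusted p up to 0.215). Of 7 R-spondin and R-spondin receptor genes 2 were tested, and both were higher in Fibroblast than in LLC, Lgr4 by 2.04 (adjusted p = 0.00247) and Rspo3, tested only through Fibroblast, by 1.43 (adjusted p = 0.00259). They were lower in TAM than in Fibroblast by differences of -2.73 and -1.43 (adjusted p = 0.000398 and 0.00173).

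Further antagonists followed both patterns. Of 17 listed, 8 were tested, and Dkk1, Dkk4 and Sost were listed at 0 in all libraries. In Fibroblast 4 were higher and 3 lower than in LLC (ranges 0 to 4 and 1 to 3, median 0.39, against -0.46 for all genes). Trabd2b, a protease that cleaves Wnt proteins, and Draxin, both tested only through Fibroblast, differed by 2.36 each (adjusted p = 0.000599 and 0.000519). Frzb, a further Sfrp family member, had 0.254 ± 0.155 RPKM in Fibroblast and 5.6 ± 2.61 RPKM in LLC (-2.34, adjusted p = 0.00157). Igfbp4 (-1.33, adjusted p = 0.0438) lost its call under 10 alternatives, among them without any 1 of the TAM, Fibroblast and LLC libraries (adjusted p up to 0.217). In TAM 6 were lower than in Fibroblast (range 1 to 6, median -1.87, against 0.13 for all genes), led by Draxin (-2.55, adjusted p = 0.000188) and Trabd2b (-2.54, adjusted p = 0.000212), and 4 were lower than in LLC (range 2 to 4, median -0.70, against -0.38 for all genes), led by Igfbp4 (-3.38, adjusted p = 0.000687) and Frzb (-2.56, adjusted p = 0.000679).

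Downstream of the receptors the 16 destruction complex and Dishevelled genes were all tested. In Fibroblast 7 were lower than in LLC (range 1 to 10, median -0.66, against -0.46 for all genes), led by Apc2 (-2.64, adjusted p = 0.000549). Dvl1 (-1.22, adjusted p = 0.00885) lost its call under 5 alternatives, which were upper-quartile rescaling, the length correction, and leaving out Fibroblast replicate 1, Fibroblast replicate 2 or LLC replicate 1 (adjusted p up to 0.0734). In TAM 9 were lower than in LLC (range 4 to 10, median -0.89, against -0.38 for all genes), led by Apc2 (-2.90, adjusted p = 0.00023) and Ctnnb1, which encodes beta-catenin (68.6 ± 9.92 RPKM in TAM and 231 ± 4.06 RPKM in LLC, -1.75, adjusted p = 0.00265). Of 14 TCF/LEF factors and partners 7 were lower in TAM than in LLC (range 6 to 7, median -0.80, against -0.38 for all genes), led by Tcf7l1 (-4.00, adjusted p = 0.000127) and Tle2 (-2.65, adjusted p = 0.00176), and Tle3 was higher (1.06, adjusted p = 0.00466). Of 15 genes listed as beta-catenin targets 11 were tested, and 6 were lower in Fibroblast than in LLC while 1 was higher (ranges 3 to 8 and 0 to 1, median -0.81, against -0.46 for all genes). The higher target was Bambi, tested only through TAM, at 0.927 RPKM in Fibroblast and 0.019 RPKM in LLC (0.92, adjusted p = 0.0138). Its call ended with quantile normalization and when any Fibroblast or LLC library was left out. Among the lower targets, Fosl1 had 12.4 ± 7.22 RPKM in Fibroblast and 115 ± 8.92 RPKM in LLC (-3.22, adjusted p = 0.00111). Myc had 73.7 ± 42.3 RPKM in Fibroblast and 284 ± 87.2 RPKM in LLC (-2.02, adjusted p = 0.0109), and this did not pass when Fibroblast replicate 2 or LLC replicate 1 was left out (adjusted p up to 0.0897). Axin2 and Nkd1 lay in the other direction in this comparison, a difference built into the filter, since both were tested only through Fibroblast. Against LLC, 2 targets were higher in TAM (Ascl2 and Bambi, both tested only through TAM) and 6 lower. Against Fibroblast, 3 were higher in TAM (Ccnd1, Cd44 and Ascl2) and 1, Wisp1, lower (17.4% of all genes called higher). The Cd44 and Ascl2 calls against Fibroblast ended with upper-quartile rescaling and without either Fibroblast library. Cd44 also lost its call with quantile normalization and without TAM replicate 2. Ascl2 also lost its call with a pseudocount of 0.1 and with the length correction. The Wisp1 call ended without TAM replicate 1 or Fibroblast replicate 1, and the Ascl2 call against LLC ended without LLC replicate 1. Lower in TAM than in Fibroblast were 2 destruction complex and Dishevelled genes and 6 TCF/LEF factors and partners, with 0 higher. Any of these target genes may have inputs besides Wnt signalling, and pathway activity was not tested.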

How the data were processed

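RNA was sequenced from 8 libraries, 2 each of TAM, Fibroblast, LLC and Total tumor. The deposited values are RPKM per transcript, computed by the authors. The submitters' processing notes name STAR, HOMER and the build mm9, with no versions. RPKM are not counts, so differences were tested with limma 3.58.1 in R 4.3.3 (mean-variance trend) on log2(RPKM + 1), in 1 fit of all 8 libraries, for genes with at least 1 RPKM in at least 2 libraries. P-values were Benjamini-Hochberg adjusted over all 13311 genes tested, in each of 6 comparisons. The step from fitted values to calls was tested on simulated, normally distributed log2 values. That run did not cover the filter, the pseudocount or the difference in depth between libraries. Reads were estimated from steps among low values, of which 57.73 to 62.3% lay within 0.05 of a whole number, so they are approximate and were not tested as counts. The members and the gene lists were chosen with earlier results of these data known. All 10 members are named. From each pathway list, up to 2 called genes a direction with the largest difference could be named, and for each tested member the 3 most correlated genes among those with a group mean of at least 10 RPKM. Alternatives changed the pseudocount, filter, scaling, variance prior, libraries in the fit, replicate block, transcript summary and a length correction, and left out each library in turn. For the pathway genes they were added after their values had been seen. A pathway gene that missed the filter under an alternative was not tested there. This was so for Wnt16, Fzd10, Rspo3, Draxin, Trabd2b and Pygo1 when 1 Fibroblast library was left out. Promoters came from RefSeq, build GRCm38.p6. Protein sequences were not used here.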

Additional observations from a re-analysis of the deposited data

How the results depend on the processing

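Of the members' called differences, 509 recomputed values kept their call, 5 lost it and none changed sign. Axin2 and Nkd1 were recomputed under 16 alternatives and the other tested members under 19. With the filter at 5 RPKM, or without either Fibroblast library, Axin2 and Nkd1 were not tested, and these cases are not counted. The number of members called for TAM minus Fibroblast was 8, and 5 without Fibroblast replicate 1 or without Fibroblast replicate 2, since Dkk2 lost its call and Axin2 and Nkd1 were no longer tested. For LLC minus Total tumor it was 0, and 1 without Total tumor replicate 1. With 1 library left out, the number ranged from 2 to 2 for TAM minus LLC, 5 to 8 for TAM minus Fibroblast, 6 to 8 for Fibroblast minus LLC, 2 to 3 for TAM minus Total tumor, 0 to 1 for LLC minus Total tumor and 6 to 8 for Fibroblast minus Total tumor. In those fits the lone library of a group is assumed to vary like the other groups. Without a filter more members were tested, and the number reached 3 in TAM against LLC and against Total tumor, and 9 in Fibroblast against LLC and against Total tumor.

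Values that changed sign all belonged to differences that were not called, and the cause was not tested. For TAM minus LLC, Sfrp1 was 0.08 with quantile normalization, 0.48 with the length correction, 0.52 without TAM replicate 1 and 0.47 without LLC replicate 2. Sfrp2 was 0.56 without TAM replicate 1 and 0.16 without LLC replicate 2, Dkk3 was -0.13 without TAM replicate 2 and Axin2 was 0.29 with the length correction. For TAM minus Total tumor, Sfrp1 was 0.18 with quantile normalization, 0.21 with the length correction, 0.40 without TAM replicate 1 and 0.19 without Total tumor replicate 1. Sfrp4 was 0.17 without TAM replicate 1, and Nkd1 was 0.02 with quantile normalization and 0.36 with the length correction. For LLC minus Total tumor, Sfrp1 was 0.10 with quantile normalization, 0.40 without LLC replicate 1 and 0.24 without Total tumor replicate 1, and Sfrp4 was -0.57 without LLC replicate 2 and -0.53 without Total tumor replicate 2. At the other end of the values with 1 library left out, TAM minus LLC reached -0.61 for Sfrp1 and -1.30 for Sfrp2, TAM minus Total tumor -0.72 for Sfrp1 and -1.64 for Sfrp4, and LLC minus Total tumor -0.63 for Sfrp1 and 0.91 for Sfrp4.

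Libraries with the same replicate number had deviations that correlated over genes between 0.162 and 0.274 among the sorted populations and between -0.361 and -0.179 with Total tumor. The labels give the numbers no shared animal or day, and with 2 numbers they were not taken as pairs. With the replicate number as a block, 2 members were called for TAM minus LLC and 8 for TAM minus Fibroblast, and no call of a member changed. Scaling moved the background. Of all genes called for Fibroblast minus LLC, 33.6% were higher as deposited, 60% after upper-quartile rescaling and 47.5% after quantile normalization. For Fibroblast minus Total tumor the shares were 28.8, 56 and 47.9%, for TAM minus Total tumor 32.2, 46.1 and 50.4%, and for TAM minus LLC 35.9, 44.5 and 46.3%. For TAM minus Fibroblast 50.2% were higher as deposited and 40.4% after upper-quartile rescaling. Over all alternatives the genes called lower ranged from 935 to 5230 for Fibroblast minus LLC (3416 as deposited), 1959 to 4848 for TAM minus LLC (3659) and 1234 to 2784 for TAM minus Fibroblast (2300), and the genes called higher from 741 to 2700 (1726), 1429 to 3007 (2048) and 1324 to 3338 (2314). Against Total tumor the genes called lower ranged from 1276 to 4136 for TAM (3181), 0 to 1532 for LLC (306) and 1222 to 5108 for Fibroblast (3988), and those called higher from 629 to 2690 (1509), 0 to 971 (7) and 635 to 2609 (1613). The naming rule picked 58 calls among pathway genes, not all of which are given above. Of these, 40 held wherever tested, 18 were lost under some alternative and 0 changed sign. At the estimated depth, the few reads of Wif1 in any library, and of Axin2 and Dkk3 in TAM, limit the precision of those values.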
